A study of Mus musculus with 5 samples.

Results

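The genes described here carry pyruvate into the mitochondrion and decide whether it becomes acetyl-CoA there: the carrier subunits Mpc1 and Mpc2, the pyruvate dehydrogenase E1 subunits Pdha1 and Pdhb, the pyruvate dehydrogenase kinases Pdk1, Pdk2, Pdk3 and Pdk4, and the phosphatase subunit Pdp2. These 9 genes were picked by symbol from 32285 genes, and all 9 were found. They were measured by single-cell RNA sequencing of hepatocytes, the parenchymal cells of the liver, in 5 libraries with 1 library for each time label. All animals were male wild-type C57BL/6J mice on normal chow that had been trained over 3 days to fast 16 h at night and to eat during 8 h of the day, and that drank 20% sucrose water on the day of sampling. The fed library (0 h) was taken after 4 h of eating at clock hour 13, and the fasted libraries followed 4 h (hour 17), 8 h (hour 21), 16 h (hour 5) and 24 h (hour 13) after food and sucrose were removed. Fasting time and hour of day cannot be told apart except between 24 h and 0 h, and the number of animals in a library is not given in the sources used here.

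Pyruvate enters the mitochondrial matrix through a carrier built from Mpc1 and Mpc2. There it is either carboxylated to oxaloacetate by pyruvate carboxylase, the first step of glucose synthesis, or oxidised to acetyl-CoA by the pyruvate dehydrogenase complex, whose E1 enzyme is a tetramer of alpha (Pdha1) and beta (Pdhb) subunits. The Pdk kinases phosphorylate the alpha subunit and switch the complex off, and the Pdp phosphatases switch it back on. Pdk4 is the kinase best known for its induction by fasting in heart, muscle and liver, through Ppara, Foxo1 and glucocorticoids.

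Hepatocyte barcodes were those with at least 1000 unique molecular identifiers (UMIs, 1 per captured transcript end), at least 500 genes and 2 to 30% mitochondrial UMIs. They numbered 7826, 4567, 2716, 9125 and 4576 of 10000 barcodes at 0, 4, 8, 16 and 24 h, with a median of 5408, 12097, 15005, 4391 and 8979 UMIs. The 8 hepatocyte markers made up 95476 to 120355 counts per 1000000 non-mitochondrial UMIs (CPM), and none was at 0. Kupffer cell markers summed to 34.9 CPM in the fed library and to 0.118 to 4.65 CPM in the fasted libraries, and the 7 endothelial markers to 148 CPM and 85.4 to 111 CPM. Dpp4 alone gave 82.4 CPM of the endothelial sum in the fed library and 76.5 to 99.4 CPM in the fasted ones. The endothelial marker Lyve1 stood at 4.50 CPM fed and at 0.0887 to 0.776 CPM fasted. Stellate markers summed to 23.2 CPM fed and 1.30 to 20.2 CPM fasted, and cholangiocyte markers to 78.1 CPM and 27.0 to 76.1 CPM. Between 22 and 30 of 10000 barcodes, and 1 to 17 of the kept ones, were shared by any pair of libraries. All intervals below are exact 95% intervals that cover counting error only. With 1 library for each time there is no replicate check and no test, and each difference is one between libraries.

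The start regions of 5 members are shown because the results turn on them: the E1 subunits differed in profile, both carrier subunits were highest at 4 h and 24 h over all kept barcodes, and Pdk4 was rare in every library. All 9 members had an entry in the RefSeq promoter table (GRCm38.p6). Each line gives the 250 bases before the listed start, 5′ to 3′ on the gene's strand, and the first of 2 listed starts for Mpc1. Capitals mark matches on either strand to 6 motifs, a set chosen after the values were seen. They are the CCAAT box, the E-box CACGTG, the core TGACGTG of an unfolded protein response element, the endoplasmic reticulum stress element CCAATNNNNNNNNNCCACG (which overlaps the CCAAT box), the FOXO site GTAAACA and AAGGTCA, the half-site of oestrogen-related receptors.
Pdhb (chr14:8172993-8173242, minus strand): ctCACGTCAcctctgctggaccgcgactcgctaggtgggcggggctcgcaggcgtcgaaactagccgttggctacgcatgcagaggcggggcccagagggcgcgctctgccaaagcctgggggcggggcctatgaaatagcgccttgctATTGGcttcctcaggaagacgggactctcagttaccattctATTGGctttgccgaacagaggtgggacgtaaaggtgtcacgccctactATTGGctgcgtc
Pdha1 (chrX:160138431-160138680, minus strand): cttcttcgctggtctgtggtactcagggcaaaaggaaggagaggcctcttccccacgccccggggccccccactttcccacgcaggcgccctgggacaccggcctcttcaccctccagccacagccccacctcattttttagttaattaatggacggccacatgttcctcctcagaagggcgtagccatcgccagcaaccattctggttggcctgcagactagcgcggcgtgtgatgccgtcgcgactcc
Mpc1 (chr17:8283537-8283786, plus strand): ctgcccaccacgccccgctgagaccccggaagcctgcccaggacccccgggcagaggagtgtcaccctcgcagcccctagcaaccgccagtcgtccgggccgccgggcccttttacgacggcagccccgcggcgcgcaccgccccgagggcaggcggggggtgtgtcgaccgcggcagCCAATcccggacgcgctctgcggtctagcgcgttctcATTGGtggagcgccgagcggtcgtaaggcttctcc
Mpc2 (chr1:165461010-165461259, plus strand): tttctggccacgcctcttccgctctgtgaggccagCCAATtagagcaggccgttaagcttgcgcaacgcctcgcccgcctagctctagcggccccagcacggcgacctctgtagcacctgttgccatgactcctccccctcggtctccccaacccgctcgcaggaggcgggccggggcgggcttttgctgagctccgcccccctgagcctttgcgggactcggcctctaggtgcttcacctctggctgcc
Pdk4 (chr6:5496279-5496528, minus strand): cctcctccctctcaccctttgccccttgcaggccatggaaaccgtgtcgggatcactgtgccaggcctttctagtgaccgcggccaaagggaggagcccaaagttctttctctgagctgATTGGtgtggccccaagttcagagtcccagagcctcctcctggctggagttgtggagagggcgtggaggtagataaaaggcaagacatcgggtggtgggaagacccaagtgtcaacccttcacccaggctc
The Pdhb window held 3 CCAAT boxes, at 101, 60 and 12 bases before the start, and 1 TGACGTG match at 248 bases, all on the opposite strand. The Pdha1 window held none of the 6 motifs. Mpc1 had 2 CCAAT boxes, and Mpc2 and Pdk4 had 1 each. Of the members not shown, Pdk2 had CCAAT boxes at 105, 73 and 42 bases before its first listed start and an E-box at 126. Pdp2 had CCAAT boxes at 101 and 55 bases and an E-box at 219, Pdk3 had a CCAAT box at 120 bases, and Pdk1 had none of the 6 motifs. Of 32851 windows of this length, 33.8% held a CCAAT box, 6.02% the E-box, 1.65% TGACGTG, 0.113% the stress element, 3.17% the FOXO letters and 4.08% the AAGGTCA letters.

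The beta subunit of E1 was far lower in every fasted library than in the fed one, and the alpha subunit was not. Pdhb reached 319 CPM when fed (12037 UMIs, 313 to 324), against 89.5, 79.3, 144 and 74.6 CPM after 4, 8, 16 and 24 h. The fed value lay above all 4 fasted values, and among the fasted libraries only the one at 16 h came back part of the way. Pdha1 stood at 109, 122, 110, 108 and 120 CPM in the same order, a nearly level row. UMIs from 3′ ends count transcripts whatever their length, so levels of different genes are set side by side without dividing by length.

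**Figure D1:**
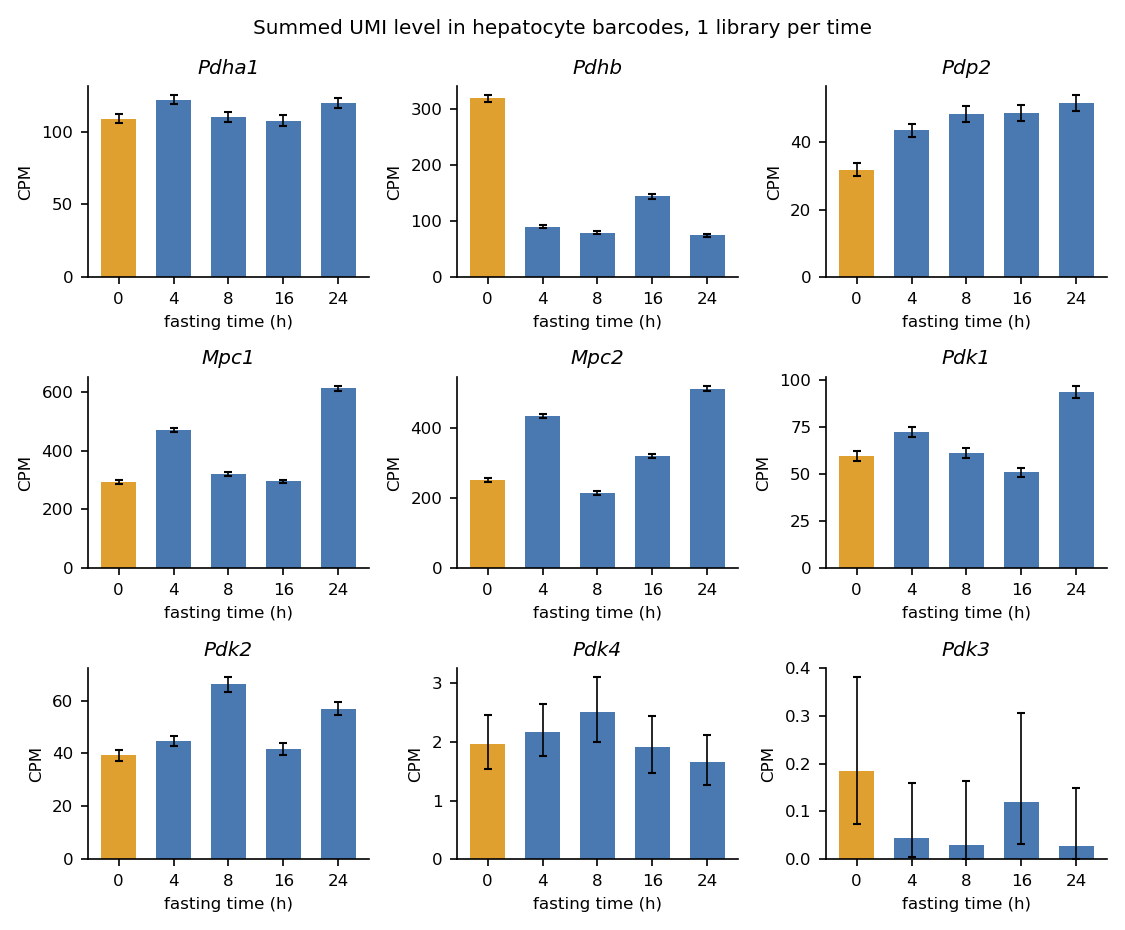
CPM of each member (vertical axis, from 0, own scale in each panel) against hours of fasting, as bars for 1 library each (fed in orange) with exact 95% Poisson intervals for counting error. Pdhb is high only in the fed library, Mpc1 and Mpc2 peak at 4 h and 24 h, and Pdk4 stays between 1.65 and 2.51 CPM.

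Relative to the fed library, Pdhb was 3.56-, 4.02-, 2.22- and 4.27-fold lower after 4, 8, 16 and 24 h, with log2 differences of -1.83 (interval -1.88 to -1.78), -2.01 (-2.07 to -1.95), -1.15 (-1.20 to -1.10) and -2.09 (-2.15 to -2.03). These 4 differences share the fed library. Of 6932 genes with a mean of at least 10 CPM over the libraries, only 61, 124, 142 and 89 were lower still at 4, 8, 16 and 24 h. Pdha1 differed from fed by a log2 difference of 0.16, 0.01, -0.02 and 0.14, so that its level stayed within 1.12-fold. The ratio of Pdha1 to Pdhb UMIs accordingly went from 0.343 in the fed library (interval 0.331 to 0.355) to 1.36, 1.39, 0.750 and 1.61.

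**Figure D2:**
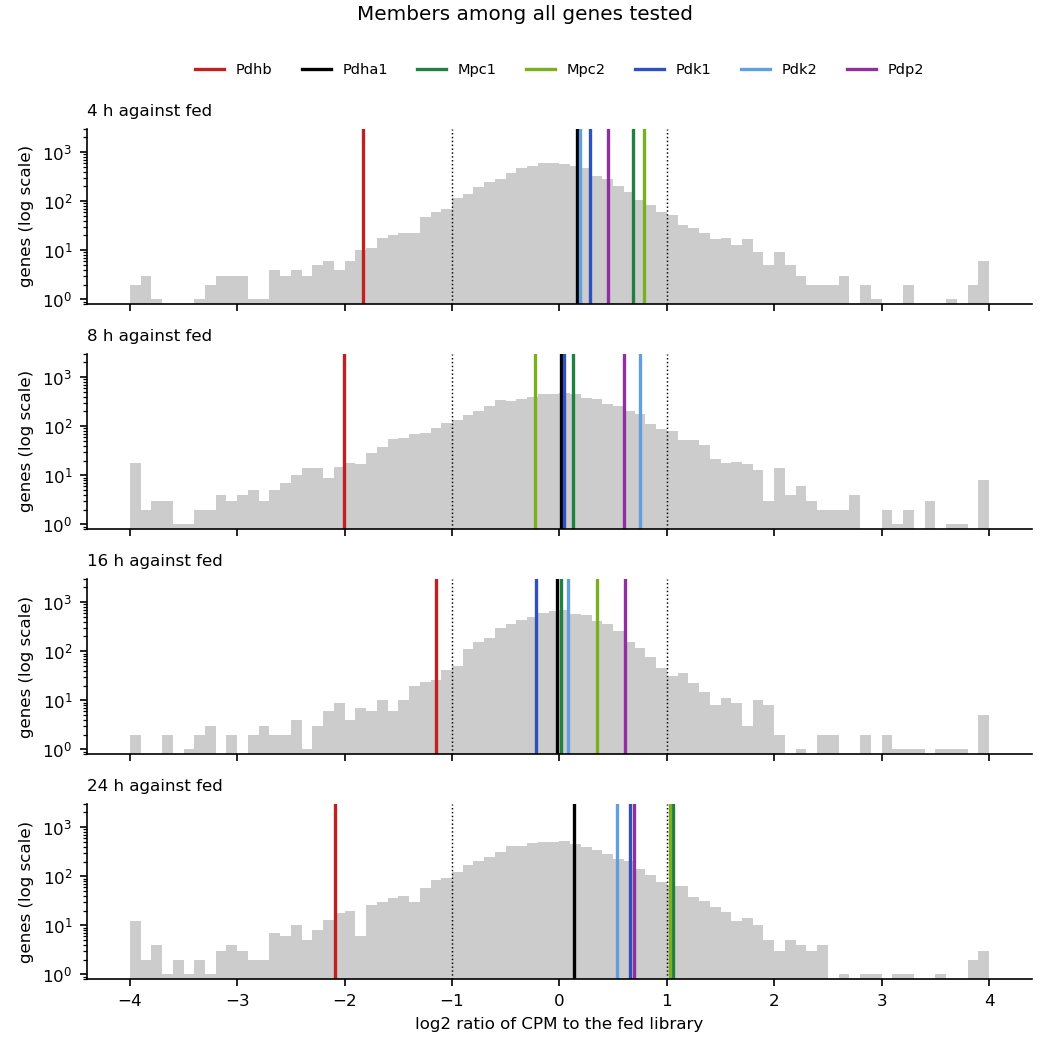
Number of genes (log scale) by their log2 ratio to the fed library at each fasting time, for the 6932 genes tested (grey; values past 4 or -4 are drawn at the edge), with the 7 members that passed 10 CPM as coloured lines and dotted lines at 2-fold. The Pdhb line lies in the far lower tail in all 4 panels, and the Pdha1 line lies near 0.

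Called at least 2-fold, Pdhb was the 1 member at 4 h (8.53% of all genes tested were called in either direction), the 1 member at 8 h (15.3%) and the 1 member at 16 h (5.4%). At 24 h 3 members were called (12%), Pdhb lower and both carrier subunits higher. Of the 9 members, 7 passed the minimum of 10 CPM, and Pdk3 and Pdk4 did not. The median log2 difference of those 7 was 0.28, 0.04, 0.01 and 0.65, against -0.07, -0.07, -0.01 and -0.08 over all genes tested. TMM scaling, which centres the libraries on genes of middle behaviour, moved that median of all genes to 0.14, 0.17, 0.05 and 0.09. It turned the share of higher genes among those called from 43.0% to 67.3% at 4 h, from 35.1% to 59.4% at 8 h, from 47.1% to 55.5% at 16 h and from 36.9% to 56.5% at 24 h, where median-of-ratios scaling gave 60.5%, 54.0%, 51.8% and 52.7%. With TMM Pdhb kept differences of -1.62, -1.76, -1.09 and -1.92, and Pdha1 had 0.37, 0.25, 0.04 and 0.31.

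Pdhb was lower in the fasted libraries at every depth looked at. In barcodes with 5000 to 20000 UMIs, whose median still ran from 5821 UMIs at 16 h to 14473 at 8 h, it stood at 331 CPM at 0 h and at 92.6, 81.0, 153 and 74.8 CPM afterwards. In kept barcodes with 1000 to under 5000 UMIs it stood at 281 CPM and then at 89.1, 117, 134 and 59.8 CPM. In the barcodes left out for having under 2% mitochondrial UMIs it stood at 467 CPM and then at 89.9, 62.8, 168 and 82.8 CPM. The fed library was the highest in all 3 classes, and 16 h was the highest of the fasted libraries in each. Pdha1 stayed between 109 and 124 CPM in the range of 5000 to 20000 UMIs, but was less even elsewhere. Its row was 80.2, 74.4, 106, 105 and 68.8 CPM in the shallower kept barcodes and 71.6, 68.6, 36.0, 102 and 70.9 CPM in the low-mitochondrial ones, with only 55 and 40 UMIs behind the values at 8 and 16 h. Without barcodes rich in markers of other cell types, Pdhb was at 319 CPM in the fed library and 74.7 CPM at 24 h.

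**Figure D3:**
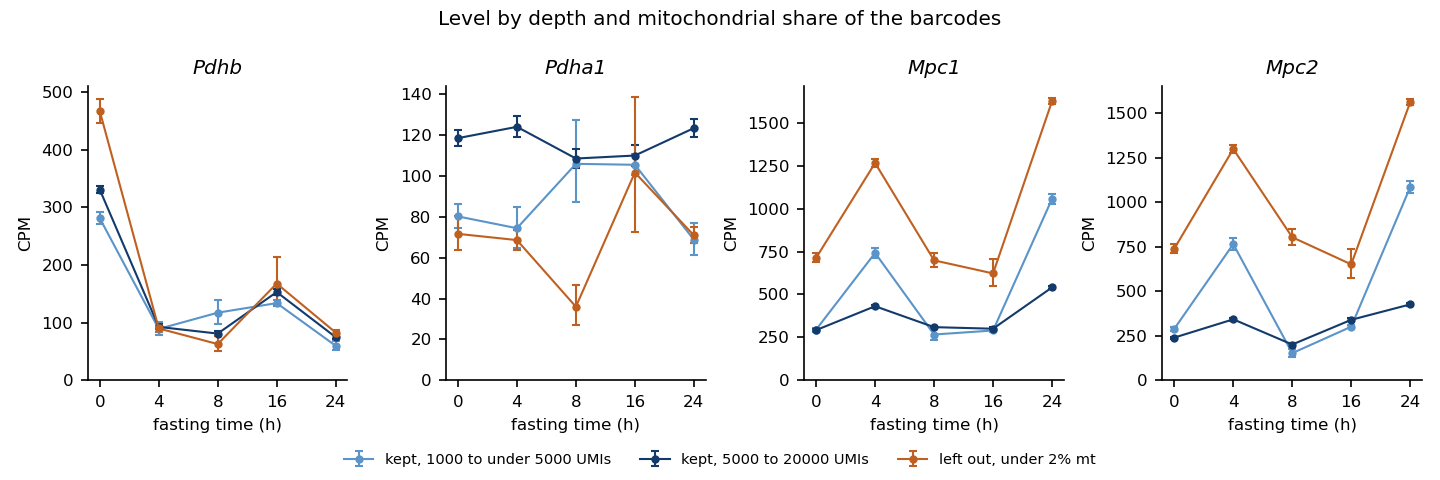
CPM of 4 members (vertical axis, from 0) against hours of fasting, in kept barcodes of 1000 to under 5000 UMIs (light blue), kept barcodes of 5000 to 20000 UMIs (dark blue) and barcodes left out for under 2% mitochondrial UMIs (orange), with exact 95% Poisson intervals. Pdhb is lower after 0 h in all 3 classes, while the height of the Mpc1 and Mpc2 peaks differs between them.

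No other gene of the complex was called lower. Of the list of 8 other subunits, phosphatases and lipoylation enzymes, 5 passed 10 CPM, and none was called at 4, 8 or 16 h, where 8.53%, 15.3% and 5.4% of all genes tested were called (12% at 24 h). Dlat, the E2 core, stood at 31.3, 40.5, 34.8, 40.8 and 36.0 CPM, and Dld, the E3 subunit, between 80.5 and 107 CPM. At 24 h the 1 gene called was Pdpr, the regulatory subunit of the phosphatase, with 7.65 CPM fed and 16.4 CPM at 24 h. The lowest at 24 h was Pdhx, the E3-binding protein, at 25.9 CPM fed and 17.8 CPM.

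The 5 genes whose profiles over the 5 libraries lay nearest to that of Pdhb were looked up after its values had been seen. They were Fndc3b, Xbp1, Mgat2, Arf4 and Ero1lb, with root mean square differences of 0.11 to 0.19 in centred log2(CPM + 1), among 2677 genes with a mean of at least 50 CPM. Xbp1, a transcription factor of the unfolded protein response, stood at 556, 167, 164, 315 and 155 CPM. Ero1lb, an oxidase of the endoplasmic reticulum, stood at 199, 63.9, 61.6, 92.3 and 38.8 CPM. Mgat2, an enzyme of N-glycan synthesis in the Golgi, stood at 188, 68.1, 54.2, 103 and 58.1 CPM. Fndc3b stood at 131, 36.5, 31.4, 71.3 and 31.7 CPM, and Arf4 at 324, 120, 108, 203 and 108 CPM. All 5 were highest in the fed library and second highest at 16 h, an order that follows from choosing them for likeness to Pdhb. A shared control with Pdhb was not tested.

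**Figure D4:**
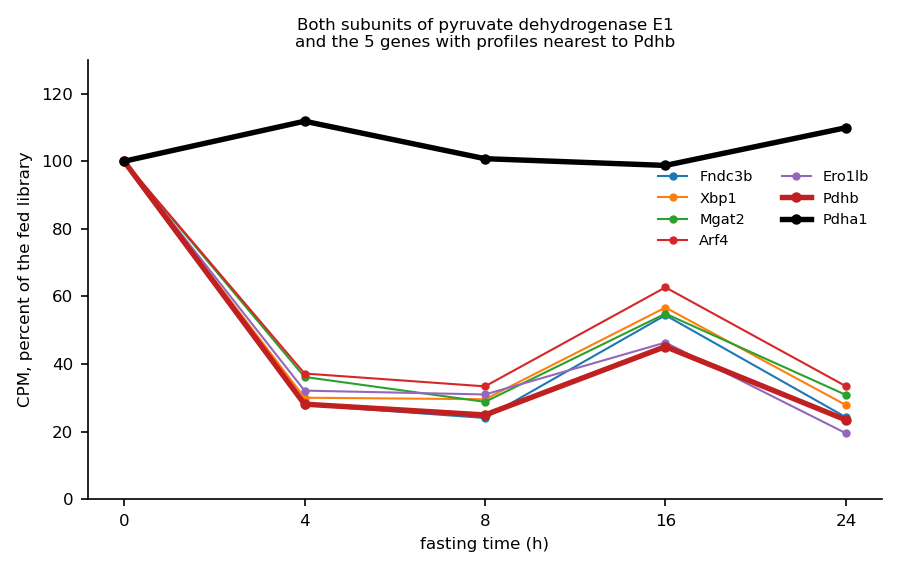
CPM as a percent of the fed library (vertical axis, from 0) against hours of fasting for Pdhb (thick red), Pdha1 (thick black) and the 5 genes with profiles nearest to Pdhb (thin lines), 1 library per point. Pdha1 stays near the fed level, and the others lie well below it at every fasting time, with a partial return at 16 h.

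Pdk4, the kinase known for its response to fasting, was a rare transcript in all 5 libraries, and over all kept barcodes its ratio to fed had an interval that included 1 at each time. It was counted 74, 99, 85, 64 and 62 times, or at 1.96 CPM (1.54 to 2.46), 2.17 CPM (1.77 to 2.65), 2.51 CPM (2.01 to 3.11), 1.91 CPM (1.47 to 2.44) and 1.65 CPM (1.26 to 2.12). The intervals of all 5 libraries overlapped, those at 8 h and 24 h only between 2.01 and 2.12 CPM. Such overlap does not show that the levels were equal. After 4, 8, 16 and 24 h the ratios to the fed value were 1.11 (0.813 to 1.52), 1.28 (0.929 to 1.78), 0.975 (0.687 to 1.38) and 0.843 (0.591 to 1.20). In barcodes of 5000 to 20000 UMIs, Pdk4 stood at 1.68 CPM fed and 2.54 CPM at 4 h, was highest at 8 h, and stood at 1.55 CPM at both 16 and 24 h. There its ratio to the fed value was 1.51 after 4 h (0.982 to 2.32), 0.925 after 16 h and 0.925 after 24 h, and the ratio after 8 h, 1.55 (1.03 to 2.34), had an interval above 1. In kept barcodes of 1000 to under 5000 UMIs it stood at 2.82 CPM fed and at 0.924 to 2.29 CPM afterwards, all below fed but from only 26, 6, 2, 37 and 4 UMIs.

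Pdk1 and Pdk2 supplied nearly all kinase UMIs. Pdk1 stood at 59.3, 72.1, 61.1, 50.9 and 93.4 CPM, highest at 24 h. Pdk2, the widely expressed isoform, stood at 39.3, 44.8, 66.1, 41.6 and 56.9 CPM, highest at 8 h. Neither was called at 2-fold against fed, the largest differences being a log2 of 0.65 for Pdk1 at 24 h (0.58 to 0.73) and 0.75 for Pdk2 at 8 h (0.66 to 0.85). In kept barcodes of 1000 to under 5000 UMIs these 2 differences were 0.06 and 1.27.

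Of the UMIs of the 4 kinases, Pdk1 made up 58.9%, 60.5%, 47.1%, 53.8% and 61.5% in time order, with Pdk2 at 39.0%, 37.6%, 50.9%, 44.0% and 37.4%. Pdk2 thus led only in the library at 8 h (interval 49.5% to 52.4%). Pdk4 made up 1.94%, 1.83%, 1.94%, 2.02% and 1.09%. Pdk3 was counted 7, 2, 1, 4 and 1 times, too few for any statement on change.

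The transcription factors and coactivators known to act on Pdk genes were measured beside them, as were Ppara targets of fat burning. Of 9 regulators, 8 passed 10 CPM, and 2, 2, 0 and 2 were called higher than fed at 4, 8, 16 and 24 h, with none lower. Over all genes tested, 3.66%, 5.38%, 2.54% and 4.44% were called higher at these times, and 4.86%, 9.95%, 2.86% and 7.59% lower. Foxo1 stood at 29.6, 80.8, 96.0, 34.3 and 70.0 CPM, and Ppara at 57.2, 95.5, 79.4, 95.8 and 134 CPM. Ppargc1a was called at 4 h (24.0 CPM fed, 56.1 CPM) and Hnf4a at 8 h (279 CPM fed, 573 CPM). The lowest regulator at 24 h was Esrra, with 41.3 CPM fed and 36.7 CPM.

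Of 9 Ppara targets, 8 passed 10 CPM, and 2, 2, 3 and 3 were called higher (3.66%, 5.38%, 2.54% and 4.44% of all genes tested), with none lower. Angptl4, an inhibitor of lipoprotein lipase, stood at 9.34, 130, 333, 79.2 and 136 CPM. Acot1, an acyl-CoA thioesterase, stood at 2.78, 43.4, 50.6, 31.7 and 31.5 CPM, and Cpt1a, which admits fatty acids to the mitochondrion, at 129, 209, 237, 315 and 440 CPM. Cpt2 was the lowest at 24 h, at 107 CPM fed and 113 CPM. Their median log2 difference was 0.57, 0.68, 0.50 and 0.74, beside ratios for Pdk4 of 0.843 to 1.28 over all kept barcodes. By the rule for named genes, those with profiles nearest to Pdk4 were Rrbp1, B230219D22Rik, Gjb1, Otulin and Ppp4r2, with differences of 0.03 to 0.05. Gjb1, a gap junction protein of hepatocytes, stood at 231, 241, 265, 232 and 214 CPM. The 1 CPM added before taking logs narrows the range of a gene as rare as Pdk4, so that abundant genes of level profile come out near it by construction.

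Pdp2, a catalytic subunit that removes the inhibiting phosphates, was above fed in all 4 fasted libraries over all kept barcodes, without reaching 2-fold. Its level was 31.9 CPM when fed (30.1 to 33.7) and 43.5, 48.3, 48.6 and 51.6 CPM in the fasted libraries, the last with an interval of 49.3 to 53.9. Its ratio to the fed value was 1.36, 1.52, 1.53 and 1.62, and no interval included 1. In kept barcodes of 1000 to under 5000 UMIs, however, Pdp2 was below fed at 4 h (26.6 CPM fed, 23.0 CPM) and at 24 h (19.2 CPM). Kinase UMIs per phosphatase UMI (Pdk1 to Pdk4 over Pdp1 and Pdp2) numbered 3.05, 2.71, 2.67, 1.89 and 2.91, lowest at 16 h. The branched-chain counterpart Ppm1k, which activates the branched-chain ketoacid dehydrogenase, stood at 31.5, 102, 82.0, 125 and 120 CPM.

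Of the 7 genes of the sister dehydrogenase complexes, 6 passed 10 CPM, and 1, 2, 1 and 2 were called higher (3.66%, 5.38%, 2.54% and 4.44% of all genes tested), with none lower and a median log2 difference of 0.48, 0.55, 0.02 and 0.44. Ppm1k was called at all 4 times, and Dlst, the E2 core of oxoglutarate dehydrogenase, at 8 h (73.9 CPM fed, 159 CPM) and 24 h (152 CPM). Ogdh, the E1 of that complex, was the lowest at 24 h, at 194 CPM fed and 180 CPM.

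Both subunits of the pyruvate carrier were at their highest after 24 h without food and were also high at 4 h. Mpc1 stood at 293, 470, 320, 295 and 611 CPM, and Mpc2 at 252, 435, 215, 321 and 514 CPM. For both, the libraries at 4 h and 24 h lay above the other 3. In barcodes of 5000 to 20000 UMIs, however, Mpc2 was as high at 16 h, with 339 CPM (331 to 348), as at 4 h, with 342 CPM (334 to 351). Against fed, Mpc1 was 2.09-fold higher at 24 h (log2 1.06, 1.03 to 1.09) and Mpc2 2.04-fold (log2 1.03, from just under 1 to 1.07), only just past the 2-fold line. The 2 subunits parted at 8 h, where Mpc1 was at a log2 difference of 0.12 from fed and Mpc2 at -0.23 (0.02 with TMM scaling), and at 16 h, with 0.01 and 0.35. In kept barcodes of 1000 to under 5000 UMIs, Mpc1 and Mpc2 were at -0.15 and -0.92 at 8 h, and at -0.03 and 0.06 at 16 h. Over all kept barcodes, Mpc1 UMIs per Mpc2 UMI were 1.17, 1.08, 1.49, 0.921 and 1.19.

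Neighbouring libraries gave 1 member called at 8 h against 4 h (2.99% of genes called), Mpc2, 2.02-fold lower (log2 -1.02). Mpc2 was no longer called there in 5 of 14 alternatives, TMM and median-of-ratios scaling and barcodes of 5000 to 20000 UMIs among them. In kept barcodes of 1000 to under 5000 UMIs its log2 was -2.33, with Mpc1 also called lower (-1.48) and Pdk2 higher (1.14). No member was called at 16 h against 8 h (16.5%), where Pdhb had the largest difference, a log2 of 0.86 upward, and Pdk2 the lowest, -0.67. In kept barcodes of 1000 to under 5000 UMIs Pdhb was at only 0.19 there, with Mpc2 at 0.98. At 24 h against 16 h Mpc1 was called (10%), 2.07-fold higher, and Pdhb lay at -0.95. In barcodes of 5000 to 20000 UMIs Pdhb was called lower there instead, and Mpc1 was not called (log2 0.85). TMM scaling turned the share of higher genes among those called from 58.6% to 36.3% at 16 h against 8 h and from 48.6% to 62.4% at 24 h against 16 h.

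The size of the carrier difference depended on which barcodes were counted. In the range of 5000 to 20000 UMIs, Mpc1 stood at 292 CPM fed and 541 CPM at 24 h, and Mpc2 at 239 and 426 CPM, which is 1.85-fold and 1.78-fold and below the 2-fold line. In kept barcodes of 1000 to under 5000 UMIs, Mpc1 stood at 295 CPM fed and 1057 CPM at 24 h, and Mpc2 at 289 and 1084 CPM. The barcodes left out for under 2% mitochondrial UMIs held far more of both genes in every library, with Mpc1 at 713, 1266, 699, 623 and 1626 CPM. In them Alb, the most abundant hepatocyte marker, was at 11835 to 31110 CPM, against 50330 to 82747 CPM in the kept barcodes. Barcodes left out in this way numbered 2172, 5345, 576, 234 and 5400 of 10000 in time order. They were most frequent at 4 h and 24 h, where both carrier subunits were highest over all kept barcodes. The median mitochondrial share of the kept barcodes was 11.9%, 19.1%, 9.79%, 13.7% and 16.3%, also highest at 4 h and 24 h. The part of these low-mitochondrial barcodes and of the mitochondrial share in the carrier values was not tested. The direction at 4 h and 24 h was the same in all 3 classes.

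Among the other entries and exits of pyruvate, lactate and acetyl-CoA, every gene called was lower than fed. Of 16 genes, 12 passed 10 CPM, and 3, 3, 2 and 5 were called lower than fed, with none higher (4.86%, 9.95%, 2.86% and 7.59% of all genes tested were called lower) and a median log2 difference of -0.42, -0.30, -0.53 and -0.83. Acly, which makes cytosolic acetyl-CoA for lipid synthesis, stood at 1860 CPM fed and at 430, 161, 224 and 174 CPM. Pklr, liver pyruvate kinase, stood at 213, 96.8, 88.5, 53.3 and 69.0 CPM, and Me1, cytosolic malic enzyme, at 443, 220, 176, 333 and 135 CPM. Cs, citrate synthase (90.9 CPM fed), and Slc16a1, a lactate and pyruvate carrier of the cell membrane (58.4 CPM fed), were called lower only at 24 h, at 35.5 and 26.7 CPM. The highest at 24 h was Ldha, lactate dehydrogenase A, at 329 CPM fed and 635 CPM. Pcx, pyruvate carboxylase, stood at 243, 231, 280, 237 and 300 CPM, so that Mpc1 UMIs per Pcx UMI were 1.21, 2.04, 1.14, 1.25 and 2.04.

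Genes with profiles nearest to those of the carrier subunits were looked up after their values had been seen. The 5 nearest to Mpc1 were D130020L05Rik, Chchd2, Gstt3, B630019A10Rik and Mrpl18, at differences of 0.06 to 0.14, and they include unnamed transcripts, a glutathione transferase (Gstt3) and mitochondrial proteins. D130020L05Rik stood at 40.7, 57.2, 41.5, 38.5 and 79.2 CPM, and Chchd2, a mitochondrial protein, at 1453, 2074, 1655, 1468 and 2667 CPM. The 5 nearest to Mpc2 were Gas5, Smlr1, Slc16a7, Chpt1 and Cyp3a59, at 0.09 to 0.20. Gas5, a host of small nucleolar RNAs, stood at 208, 409, 181, 311 and 438 CPM, and Slc16a7, a monocarboxylate carrier, at 72.0, 82.7, 51.8, 77.9 and 128 CPM. Mpc2 ranked 49th in likeness to Mpc1, and Mpc1 ranked 7th in likeness to Mpc2.

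Position along the lobule was approximated by ranking the hepatocytes of each library from Cyp2f2, high near the portal vein, to Cyp2e1, high near the central vein, and splitting them into 3 equal parts. The parts are ranges of a score and not positions in tissue, and 15.4% to 41.7% of cells lay within 0.1 SD of a limit between parts. At 0 h the 1 member called at 1.5-fold was Mpc2 (5.84% of genes called), at 221 CPM in the Cyp2f2 part, 229 CPM in the middle and 334 CPM in the Cyp2e1 part. No member was called at 4 h (8.26%), 8 h (4.09%) or 16 h (6.32%). At 24 h 2 were called (19.2%), Mpc1 at 505, 575 and 896 CPM and Mpc2 at 393, 490 and 805 CPM. The Cyp2e1 part at 24 h was unlike that of the other libraries. Its median Cyp2e1 level was 4.41 per 10000 UMIs, against 26.9, 52.5, 26.1 and 56.9 at 0, 4, 8 and 16 h. Its median Cyp2f2 level was 3.93 per 10000, and its median mitochondrial share was 11.1% against 18.4% in the Cyp2f2 part.

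**Figure D5:**
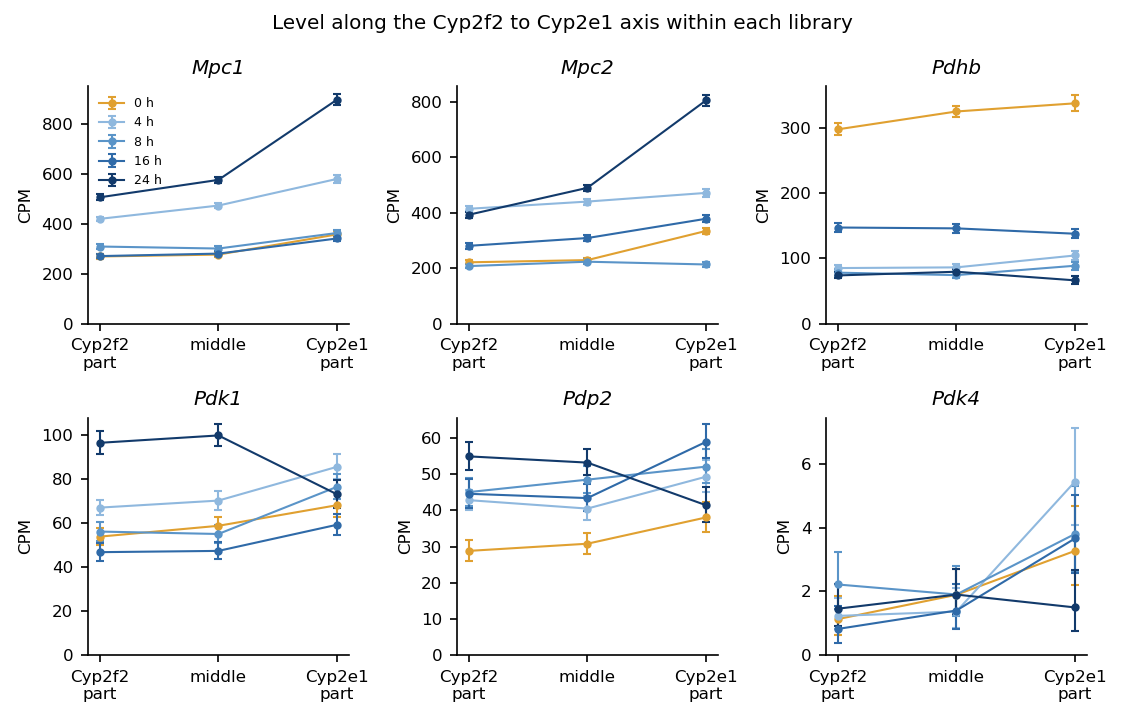
CPM of 6 members (vertical axis, from 0) in the 3 equal parts of each library along the Cyp2f2 to Cyp2e1 axis, 1 line per fasting time, with exact 95% Poisson intervals. Mpc1 and Mpc2 climb toward the Cyp2e1 part at 24 h, Pdk1 and Pdp2 are higher in the Cyp2e1 part than in the Cyp2f2 part at 0 to 16 h and lower at 24 h over all kept barcodes, and the Pdhb line of the fed library lies above the others in all 3 parts.

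Pdk1 was modestly higher toward Cyp2e1 in 4 libraries, by 1.27-, 1.28-, 1.36- and 1.27-fold in time order from 0 to 16 h, and lower there at 24 h (96.6 CPM in the Cyp2f2 part, 73.1 CPM in the Cyp2e1 part). In barcodes of 5000 to 20000 UMIs these ratios of Pdk1 were 1.32, 1.34, 1.47 and 1.20 and, at 24 h, 1.04, with medians of 11455 UMIs in the Cyp2f2 part and 12057 in the Cyp2e1 part at 24 h. In those of 1000 to under 5000 UMIs they were 0.963, 0.776, 0.746, 1.32 and 0.752, the opposite direction at 0, 4 and 8 h. At 4 h the direction of Pdk1 also turned with the mean of per-cell CPM (0.947), and it was level with 2 to 15% mitochondrial UMIs (log2 under 0.01 in size). The Pdk1 ratio at 24 h was 0.474 with 2 to 15% and 0.612 with 0 to 30% mitochondrial UMIs. Pdp2 was likewise higher toward Cyp2e1 in those 4 libraries, by 1.32-, 1.15-, 1.16- and 1.32-fold, and lower at 24 h (0.754-fold). At 4 h the direction of Pdp2 turned in 4 of 12 alternatives, with ratios down to 0.844 for the mean of per-cell CPM. At 24 h its ratio was 1.04 in barcodes of 5000 to 20000 UMIs, but 0.412 with 2 to 15% and 0.513 with 0 to 30% mitochondrial UMIs. Pdha1 differed between the outer parts by at most 1.08-fold in those 4 libraries, and at 4 h by up to 1.27-fold under the alternatives (lower toward Cyp2e1 with the mean of per-cell CPM). At 24 h Pdha1 was at 124 CPM in the Cyp2f2 part and 93.3 CPM in the Cyp2e1 part, 1.33-fold lower toward Cyp2e1. That ratio reached 2.07 with 2 to 15% mitochondrial UMIs and was 0.939 in barcodes of 5000 to 20000 UMIs. Between the outer parts, Pdhb was 1.13-, 1.23- and 1.14-fold higher toward Cyp2e1 at 0, 4 and 8 h, and 0.935- and 0.898-fold at 16 and 24 h. Pdhb was lower than fed in each of the 3 parts at each time, by a log2 difference of -1.02 to -2.35.

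The parts differed in depth in every library, and the Cyp2e1 part was the shallowest. The median UMIs in the Cyp2f2 and Cyp2e1 parts were 5721 and 2812 at 0 h, 18943 and 3094.5 at 4 h, 15628.5 and 10845 at 8 h, 4331 and 3856 at 16 h, and 11197 and 3028 at 24 h. The part of this depth gap in the axis values was not tested. At 24 h 5 of 7 other zonation genes followed the axis. The central genes Cyp1a2 and Oat stood at 10.3 and 11.9 CPM in the Cyp2f2 part and at 63.2 and 79.8 CPM in the Cyp2e1 part. The portal genes Hal (964 and 705 CPM), Hsd17b13 (996 and 639 CPM) and Pck1 (4897 and 3598 CPM) were higher in the Cyp2f2 part. Glul, the marker of the innermost central cells, was at 55.0 and 46.6 CPM, and Sds, a portal gene, at 398 and 638 CPM, both against the axis. Among barcodes of 5000 to 20000 UMIs no member was called on the axis at 24 h or at 0 h.

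Pdk4 had too few UMIs to be called, but its counts were uneven along the axis. In the fed library it was counted 15 times in the Cyp2f2 part and 30 times in the Cyp2e1 part (1.13 and 3.27 CPM, ratio 2.90, 1.51 to 5.80). The ratios after 4, 8, 16 and 24 h were 4.43 (2.72 to 7.38), 1.72 (just under 1 to 2.98), 4.47 (2.12 to 10.5) and 1.03 (0.447 to 2.23). The Cyp2e1 part also held more markers of some other cell types, such as Kupffer cell markers at 109 CPM against 5.72 CPM in the fed library. Cholangiocyte markers were lower in the Cyp2e1 part at 0 to 16 h (62.9 CPM against 80.7 CPM in the fed library) and higher at 24 h. Without barcodes rich in markers of other cell types the Pdk4 ratios were 2.12 (1.06 to 4.37), 4.34, 1.69, 4.07 and 0.835 in time order from the fed library. In barcodes of 5000 to 20000 UMIs they were 2.41 (1.12 to 5.62), 8.60 (3.04 to 33.5, from 4 and 31 UMIs), 1.93, 3.06 and 1.43. Set against the same part of the fed library, the Cyp2e1 part had a log2 difference of 0.74 at 4 h (0.06 to 1.43) and -1.13 at 24 h (-2.27 to -0.09). The Cyp2f2 part had one of 0.97 at 8 h, with an interval just above 0, and the other 9 such intervals included 0. The highest level in any of the 3 parts was 5.45 CPM at 4 h, and with 5 equal parts it was 6.80 CPM (4.98 to 9.07), in the part at the Cyp2e1 end of the same library.

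In GENCODE M21 (GRCm38), Pdhb lies on chromosome 14 at 8165996 to 8173025 (minus strand) and Pdk4 on chromosome 6 at 5483351 to 5496309 (minus strand). Pdha1 lies on chromosome X at 160122209 to 160138413 (minus strand), where it overlaps Map3k15 on the other strand, which stayed at or below 0.656 CPM. Mpc1 lies on chromosome 17 at 8282904 to 8297661 and Mpc2 on chromosome 1 at 165460637 to 165481214, both on the plus strand, and Mpc2 overlaps Gm37860 on the same strand.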

How the data were processed

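Hepatocytes of 5 time labels were measured by 10x 3' single-cell RNA sequencing. The deposited values are raw UMI counts for each barcode, made with Cell Ranger 6.0.1 per the file headers, on build mm10 per the submitters' processing notes. The deposited annotation names the library of each barcode and no cell type. Of 32285 gene IDs, 32158 (99.6%) were found in GENCODE M21.

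UMI counts of the barcodes that passed the filters were summed per library and divided by the non-mitochondrial UMIs, 33521626 to 45532684 per library, as CPM. 1 UMI was worth 0.0220 to 0.0298 CPM, and 0 UMIs allow up to 0.0659 to 0.0895 CPM (3 counts). No doublet caller was run. A gene was called at 2-fold with a mean of at least 10 CPM over the libraries, or on the axis at 1.5-fold with a mean of at least 10 CPM over the outer parts. Cells were ranked by log2 of Cyp2e1 over Cyp2f2 per 10000 UMIs, with 1 added to each. Intervals are exact Poisson, Clopper-Pearson or conditional binomial. With 1 library per time no test was made. The ratio script was tested on simulated data.

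The members, lists and markers were chosen with earlier results of these data known. Named genes are all members, list genes called at any fasting time or highest or lowest at 24 h, and the 5 genes nearest in profile to Pdk4. Dlat, Dld, Pcx and the genes nearest to Pdhb, Mpc1 and Mpc2 were named after their values were seen. Alternatives covered depth, mitochondrial share, marker filters, the CPM minimum, the fold, denominators, scaling (TMM with edgeR 4.0.16 in R 4.3.3, and median of ratios) and the axis. Tables were made with pandas 2.3.3 and numpy 2.4.6 in Python 3.11.15, intervals with scipy 1.17.1, and plots with matplotlib 3.10.9.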

Additional observations from a re-analysis of the deposited data

How the results depend on the processing

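No paired analysis was possible because each time label has 1 library and no result comes from a test. Pdhb was called lower than fed at all 4 fasting times under each of the 14 alternatives tried. In the 11 that change its values, log2 differences ran from -2.23 to -1.07. The others, a minimum of 50 CPM, no minimum and the 1.5-fold line, could not undo the call. The number of all genes called against fed moved strongly over these alternatives. It ran from 283 to 3235 at 4 h (591 in the main setting) and from 483 to 3829 at 8 h (1063). At 16 h it ran from 161 to 2489 (374), and at 24 h from 415 to 3435 (834). The counts of members called otherwise moved as follows, and without the share of all genes beside them they are not results about the members. With all UMIs in the denominator, 1 member was called at 24 h against fed and 0 at 8 h against 4 h. With 0 to 30% mitochondrial UMIs, 2 were called at 4 h against fed and 2 at 24 h against 16 h, and 2, 2, 1 and 6 on the axis at 0, 4, 8 and 24 h. With 2 to 15%, 3 were called at 4 h against fed, 2 at 24 h against 16 h, and 3 and 6 on the axis at 4 and 24 h. With 5000 to 20000 UMIs, 1 was called at 24 h against fed, 0 at 8 h against 4 h, Pdhb in place of Mpc1 at 24 h against 16 h, and 0 on the axis at 0 h and 24 h. With 1000 to under 5000 UMIs, an alternative chosen after seeing the data, 3 and 2 were called at 4 and 8 h against fed, 3 at 8 h against 4 h and 4 at 24 h against 16 h, and 3, 2, 2 and 3 on the axis at 0, 4, 8 and 24 h. With the mean of per-cell CPM, 3 were called at 24 h against 16 h, and 2 and 6 on the axis at 4 and 24 h. Leaving genes above 1% of UMIs out of the total, 0 were called at 8 h against 4 h and 0 on the axis at 0 h. With no minimum on CPM, 2, 2 and 4 were called at 4, 8 and 24 h against fed, and 2, 2, 1, 1 and 3 on the axis at 0, 4, 8, 16 and 24 h. TMM scaling gave 2 at 4 h against fed and 0 at 8 h against 4 h, and median-of-ratios scaling 0 at 8 h against 4 h. At 1.5-fold, 3, 3, 2 and 5 were called against fed, 2 at 16 h against 8 h and 4 at 24 h against 16 h. On the axis, 5 equal parts gave 2 at 0 h, thinned cells 0 at 0 h and 1 at 24 h, several landmarks 1 at 8 h, and a 2-fold line 0 at 0 h and 1 at 24 h. Unless a value above shows it, the cause was not tested. Depth limits Pdk3 and Pdk4, whose libraries held 1 to 99 UMIs each.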
